A study of Homo sapiens with 16 samples.

Results

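The distal segment of chromosome 10 was examined in hTERT RPE-1 cells. RPE-1 is an established line of human retinal pigment epithelium, made to grow without limit with telomerase, and is known to carry an extra copy of the distal long arm of chromosome 10, joined to an X chromosome. Members were the RNA polymerase II (Pol II) peaks on chromosome 10 that start at or past position 64000000 of hg19, and they were set against peaks on the proximal rest of chromosome 10 and on the other 21 autosomes. The 1 h list holds no gap of 37 bp or less and no very narrow peaks, so in each list neighbours within 37 bp were merged and peaks narrower than the narrowest of the 1 h list were removed. After this, the segment held 2044 of 60318 control peaks, 2086 of 68011 peaks at 30 min of merbarone and 2513 of 81816 peaks at 1 h. As deposited it held 2946, 2686 and 2513 peaks. Merging took 423 control and 340 30 min peaks into their neighbours, the width limit removed 479 and 260, and the 1 h list was unaffected.

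Chromatin immunoprecipitation and sequencing (ChIP-seq) was done on wild type RPE-1 cells held for 48 h in 0.1% serum. The Pol II control list stood for 3 libraries given DMSO for 30 min and 3 untreated libraries. Merbarone at 200 uM was given for 30 min (3 libraries) or 1 h (2 libraries), and DNA topoisomerase II alpha (TOP2A) was mapped in untreated cells (2 libraries). Each condition had 1 list of peak positions with no height, score or read count, so there is no spread between replicates, no test between conditions was possible, and 95% intervals cover counting only. The lists pool unequal numbers of libraries, and the part of this in the differences between times was not tested. DMSO was given for 30 min only, so at 1 h merbarone and a longer time in vehicle cannot be told apart. The 3 IgG libraries were not analysed here.

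Pol II transcribes genes, and the moving enzyme leaves overwound DNA ahead of it and underwound DNA behind it. TOP2A removes such supercoils by passing one DNA duplex through another, and merbarone blocks the enzyme before it cuts DNA. In peak lists the width and number of peaks depend on how much of the genome passes the caller's limit, and a stretch present in more copies gives more reads per position. The lists hold no reads, so the gain of the segment could not be checked from them, and occupancy per copy and copy number cannot be told apart. The files give no gene names, and no annotation of hg19 was used, so places are named by position only.

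Pol II was unevenly spread along the segment. From its start to the last peak at 135341470 the segment spans 71.3 Mb, and 314 of its 714 bins of 100 kb held a peak in at least 1 Pol II list. On the proximal side 188 of 639 such bins did. The last control peak before the segment lay at 63859166 to 63859456 and the first inside it at 64003112 to 64003389, so the start falls in a gap of 143655 bp and no control peak sits on the limit. At 30 min the nearest proximal peak ended at 63984700, and at 1 h at 63860328.

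Peak density on the segment was within the range of the other autosomes. The segment had 28.7 peaks per Mb in control, 29.2 at 30 min and 35.2 at 1 h, and proximal chromosome 10 had 19.9, 21.5 and 22.3. Among the other autosomes control density ran from 9.03 on chromosome 13 to 65.6 on chromosome 19, with 15 below the segment and 6 above. The contrast with the proximal side depended on how length was counted. Per 100 kb bin that held a peak, the segment had 6.51 peaks in control and 6.64 at 30 min. The proximal side was higher at both, with 6.76 and 7.303. At 1 h the segment was higher by this count too, with 8.003 against 7.56. With lists as deposited the order over time turned round, at 41.3 peaks per Mb of the segment in control, 37.6 at 30 min and 35.2 after 1 h. Pol II peaks covered 19.4 kb per Mb of the segment in control, 21.2 at 30 min and 27.9 at 1 h, and 9.49, 11.7 and 13.3 kb per Mb of the proximal side.

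The median width of control peaks on the segment depended on the densest stretch and on the limits. The median width was 385 bp (interval 362 to 408), against 293 bp on proximal chromosome 10, which was below all 21 other autosomes (326 to 393 bp). Chromosomes 22 and 19 had wider medians than the segment. Without the 5 Mb bin of most control cover the segment median was 364.5 bp with 7 autosomes above, and with peaks of at least 300 bp it was 680.5 bp with 14 above. At 30 min the median was 361 bp on the segment and 332 bp on the proximal side, and at 1 h 364 and 347 bp. With lists as deposited the segment medians were 263.5 bp in control, 294 bp at 30 min and 364 bp after 1 h, so the direction against control turned round. Peaks of at least 1 kb made up 20.5% of control peaks on the segment, 9.99% on the proximal side and 19% on the other autosomes. There were 12 peaks of 5 kb or more in control, 20 at 30 min and 46 at 1 h. They held 5.18%, 9.23% and 18% of the covered length of the segment. Those of at least 10 kb numbered 0, 2 and 7.

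The widest control peak of the segment spanned 6966 bp from 81069068 to 81076033 and lay wholly under peaks at both merbarone times. The second, 6851 bp from 75556377 to 75563227, was also fully covered at both times. At 30 min the widest spanned 12.7 kb from 81063466 to 81076125, where control had 5 peaks over 95.9% of the same bases. At 1 h the widest spanned 18.6 kb from 81019608 to 81038181, over 20 control peaks that covered 78.5% of it. The next, 17.5 kb from 73564840 to 73582328, stood over 14 control peaks and 10 peaks at 30 min, which covered 87.8% and 74.5%. These wide peaks at 1 h thus lay over bases that were mostly covered, in pieces, in the other lists.

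Control peaks on the segment stood close together. The median gap between neighbours was 491 bp (435 to 557), against 674 bp on the proximal side and 599 to 2134 bp on the other autosomes. This value rests on 1 dense stretch of 5 Mb. Without the bin from 79000000 to 83999999, which held 19.1% of the segment's control cover, the median gap was 631 bp and 3 autosomes were lower. At 30 min the gap was 596 bp (542 to 684), and at 1 h it was 528 bp (482 to 589). Both were above control, but both intervals overlapped that of control. The gap was below control on all 21 other autosomes at both times and on the proximal side (533 and 440 bp). With lists as deposited the gap at 30 min was above control on 17 of the 21 and at 1 h on all 21, so the direction elsewhere depends on the limits, which change merging and the width limit together. With peaks up to 1 kb apart merged, the gap on the segment in control was 17126 bp, with 12978 bp at 30 min and 9692 bp after 1 h, so the direction on the segment turned round too, and 9 autosomes were lower in control. At 1 h the gap also stood below control on the segment without the densest 5 Mb bin, where it was 631 bp in control, 680.5 bp at 30 min and 562 bp after 1 h. With peaks of at least 300 bp it was 987 bp in control and 955.5 bp at 1 h. Gaps under 1 kb made up 61.9% of control gaps on the segment (59.7 to 64) and 53.2% (52.8 to 53.7) on the other autosomes. Control had 226 gaps over 50 kb, the 30 min list 222 and the 1 h list 221, so long empty stretches were about as many in each list.

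**Figure D1:**
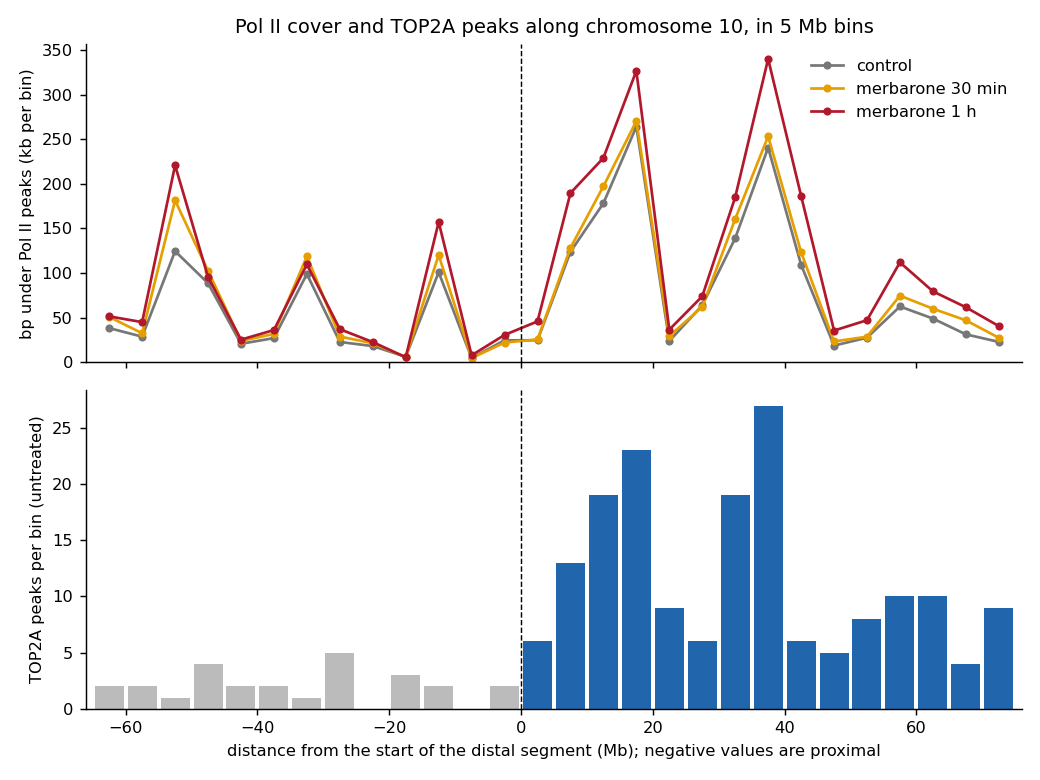
Pol II cover in kb per 5 Mb bin (top, lines for control, 30 min and 1 h) and TOP2A peaks per bin in untreated cells (bottom), against distance in Mb from the start of the distal segment, marked by the dashed line. The first and last bins are cut short by the ends of the chromosome; TOP2A counts run from 4 to 27 in the distal bins (blue) and from 0 to 5 in the proximal bins (grey).

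TOP2A peaks were far denser on the segment than on proximal chromosome 10 or any other autosome. The segment held 174 of all 1840 TOP2A peaks (9.46%, 8.2 to 10.9) and 3.39% of control Pol II peaks (3.25 to 3.54). That is 2.44 TOP2A peaks per Mb (exact Poisson interval 2.09 to 2.83), against 0.407 (0.266 to 0.597) on proximal chromosome 10. The other 21 autosomes ran from 0.283 on chromosome 18 to 1.08 on chromosome 17, and none reached the lower bound for the segment. The segment value was 5.99 times the proximal one and 2.27 times that of chromosome 17.

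The difference was also seen relative to Pol II. Per Mb of bases under control Pol II peaks there were 126 TOP2A peaks on the segment (108 to 146), 42.9 on the proximal side (28 to 62.9), and from 10.2 on chromosome 19 to 81.5 on chromosome 4. The interval for chromosome 4 ended at 98.6. With TOP2A peaks up to 1 kb apart taken as 1 site, the values were closer. The segment then had 92.7 sites per Mb of this cover and chromosome 4, the highest other autosome, 73.1. No intervals were computed for these sites. Against the other 21 autosomes pooled, the segment had 2.94 times as many TOP2A peaks per Mb of Pol II cover. More copies of the segment and more TOP2A per copy cannot be told apart here.

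**Figure D2:**
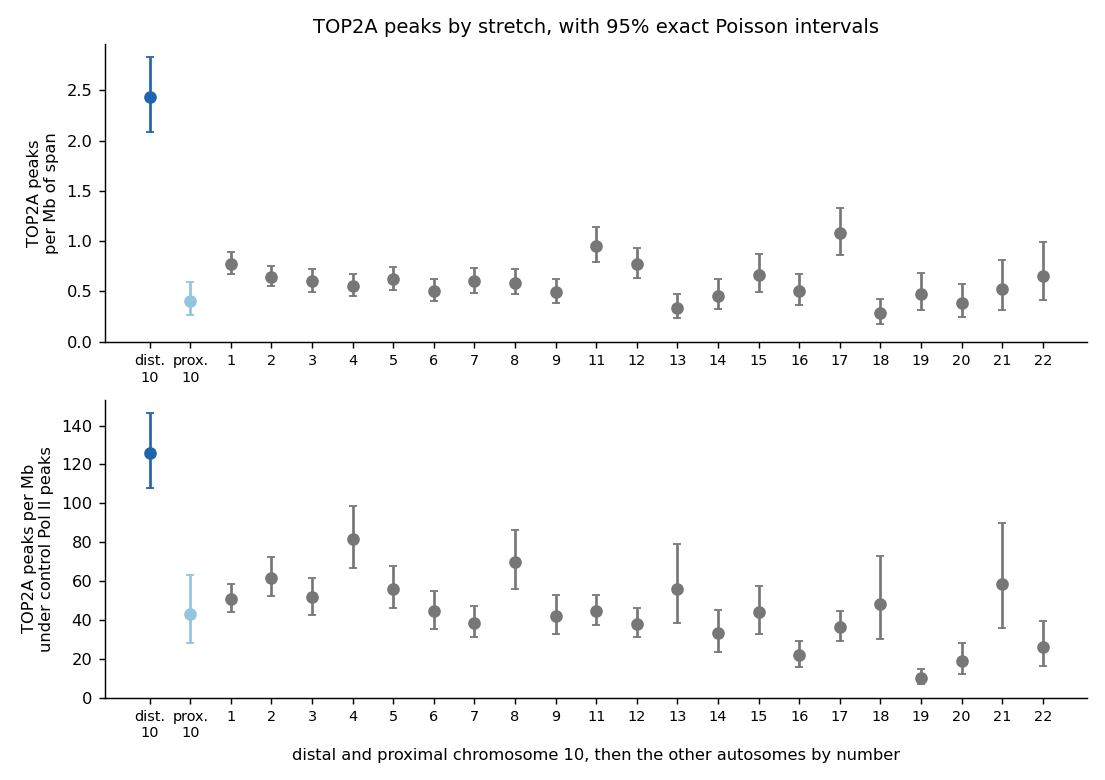
TOP2A peaks per Mb of span (top) and per Mb of bases under control Pol II peaks (bottom) on distal chromosome 10, proximal chromosome 10 and the other autosomes; points are values from 1 list and bars 95% exact Poisson intervals. The distal segment stands at 2.44 and 126, and the highest other autosomes at 1.08 and 81.5.

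The density was spread along the whole segment. All 15 bins of 5 Mb held TOP2A, with 4 to 27 peaks each, while the 13 proximal bins held 0 to 5 and 2 of them none. The most were found from 99000000 to 103999999 (27 peaks) and from 79000000 to 83999999 (23 peaks), which were also the stretches with the most Pol II cover. Among bins with at least 50 kb of control Pol II cover, the 8 on the segment had 54.9 to 160 TOP2A peaks per Mb of that cover, and the 4 on the proximal side had 8.02 to 45.1. Of 228 such bins on the other autosomes the median was 32.5 and the 95th percentile 96.7. All 8 segment bins were above that median and 5 above that percentile, though the highest bin elsewhere stood at 188. The last TOP2A peak before the segment lay at 63809135 to 63809220 and the first inside at 64575492 to 64575564.

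TOP2A peaks on the segment lay on Pol II about as often as elsewhere. Of the 174, 129 (74.1%, 67.2 to 80.1) overlapped a control Pol II peak, against 75.6% (73.5 to 77.6) on the other autosomes and 21 of 26 on the proximal side. Those on no Pol II list numbered 37 (21.3%), against 20.3% on the other autosomes. All 129 also lay on Pol II at 30 min and at 1 h. The peaks were of like width, with a median of 89 bp on the segment and 86 bp elsewhere. The smallest width in the list is 73 bp, and 22.4% (16.9 to 29.2) of segment peaks stood at it, against 28.9% (26.7 to 31.1) on the other autosomes. TOP2A peaks within 1 kb of another numbered 76 (43.7%, 36.5 to 51.1) on the segment, against 23.5% (21.5 to 25.6) on the other autosomes. With peaks up to 1 kb apart taken as 1 site, the segment had 128 sites, or 1.79 per Mb, against 0.345 on the proximal side and at most 0.903 on another autosome.

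At like Pol II peak width, more control peaks of the segment held TOP2A. Of peaks from 600 to under 1200 bp wide, 25 of 367 (6.81%, 4.66 to 9.86) did on the segment, against 2.58% (2.29 to 2.91) on the other autosomes. Of those from 1200 to under 2400 bp wide, 43 of 256 (16.8%, 12.7 to 21.9) did, against 6.93% (6.31 to 7.6). Of the widest class, 2400 bp or more, 14 of 66 (21.2%, 13.1 to 32.5) did, against 10.6% (9.31 to 12). Under 600 bp TOP2A was rare in both, with 10 such peaks on the segment. The proximal side had 19 control peaks with TOP2A in all, and its intervals overlapped those of both others in the 3 widest classes.

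**Figure D3:**
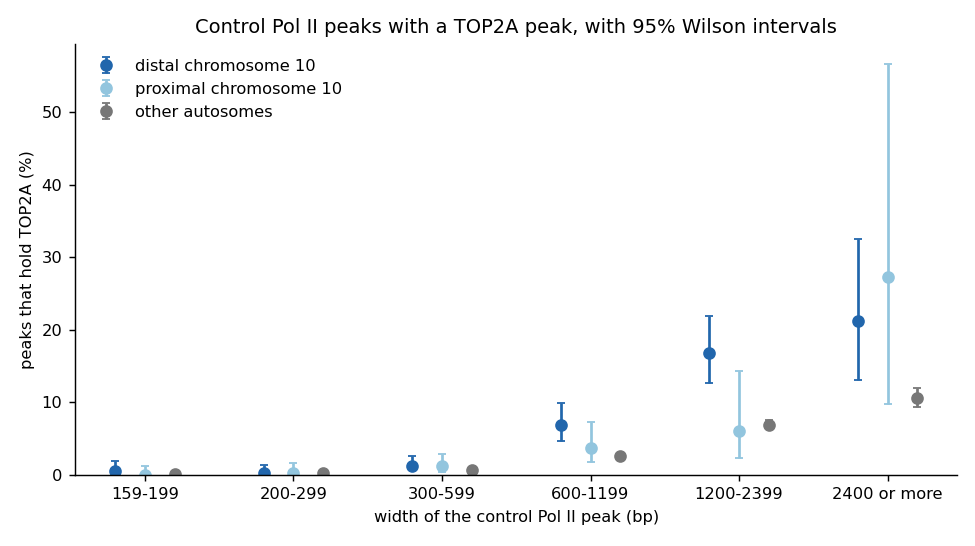
Share of control Pol II peaks that hold a TOP2A peak, in percent, by width of the Pol II peak in bp, for distal chromosome 10, proximal chromosome 10 and the other autosomes; bars are 95% Wilson intervals. From 600 bp up the distal shares of 6.81%, 16.8% and 21.2% lie above those of the other autosomes.

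Single places show how TOP2A lay on Pol II. The domain with the most TOP2A, 254.7 kb from 80826010 to 81080720, held 10 peaks and was under Pol II over 80.8% of its length in control. Domains here are stretches made by joining peaks of the 3 Pol II lists across gaps of up to 5 kb. A domain of only 8.84 kb from 77154813 to 77163650 held 7 TOP2A peaks and was covered over 85.7% in control. The widest TOP2A peak, 300 bp from 116582137 to 116582436, lay wholly on Pol II in all 3 lists. So did the other 4 of the 5 widest, except that Pol II at 30 min covered 97.9% of the one from 80827806 to 80828090. Of segment domains at least 5 kb wide, 31 of 163 (19%, 13.7 to 25.7) held TOP2A, against 8.95% (8.22 to 9.75) on the other autosomes.

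After 30 min of merbarone Pol II cover on the segment rose less than on any other autosome. Bases under Pol II peaks came to 1.51 Mb at 30 min against 1.38 Mb in control, a ratio of 1.10. Ratios on the other autosomes ran from 1.11 on chromosome 12 and 1.12 on chromosome 11 to 1.23 on chromosome 18, and on proximal chromosome 10 the ratio was 1.23. With 1 list per condition these ratios have no error, and the step to chromosome 12 is small. The mean peak width was 725 bp at 30 min and 675 bp in control. Peak number was 1.02 times control on the segment, below the 1.06 to 1.28 of the other autosomes. With lists as deposited it was under control, at 0.912 times, but so it was on 14 of the 21 other autosomes and on the proximal side (0.914). With a limit of 300 bp it was 0.976 times control on the segment, and at least 1.06 on the other autosomes. In cover ratio the segment also stood lowest with lists as deposited, with a limit of 300 bp, with peaks merged up to 1 kb and with its start moved by 3 Mb. Without the 5 Mb bin of most control cover the ratio was 1.11, and chromosome 12 alone was lower. In peak number the place at the bottom was lost with peaks merged up to 1 kb, where the ratio was 1.14 and 18 autosomes were lower.

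Relative to control cover, fewer bases were added on the segment than on most autosomes, and more were lost. Bases at 30 min outside control peaks came to 27.8% of control cover on the segment, 47.2% on the proximal side and 27.6% to 40.9% on the other autosomes, of which 1 was lower than the segment. Control bases not covered at 30 min made up 18.3% on the segment, 24.1% on the proximal side and 15% to 19.4% on the other autosomes, of which 17 were lower. With peaks merged up to 1 kb the lost share was 14.8% on the segment with 7 autosomes lower, so more was then lost on most autosomes. The ratio was 1.05 in domains under 2 kb, as on the other autosomes. It was 1.15 in domains of 2 to 10 kb (1.2 on the other autosomes), 1.1 in those of 10 to 50 kb (1.18) and 1.07 in the 8 of 50 kb or more (1.1). Domains of 50 kb or more held 31.2% of control cover on the segment, against 19.4% on the other autosomes.

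After 1 h of merbarone the cover ratio of the segment lay inside the range of the other autosomes. Cover was 1.99 Mb, which is 1.44 times control, with 9 autosomes below and 12 above in a range from 1.36 on chromosome 22 to 1.6 on chromosome 21. Without the densest 5 Mb bin the ratio was 1.49 and 16 autosomes were lower. The proximal side stood at 1.4. Mean peak width at 1 h was 792 bp. Bases at 1 h outside control peaks came to 56.3% of control cover on the segment and 62.7% on the proximal side. On the other autosomes they ran from 46.4% to 73.8%. Control bases not covered made up 12.1% on the segment and 23% on the proximal side, against 10.6% to 16.2% on the other autosomes. In both shares 7 autosomes were lower than the segment, and all 21 had a lower lost share than the proximal side. Peak number on the segment was 1.23 times control, below the 1.25 to 1.67 of the other autosomes. But without the densest 5 Mb bin it was 1.31 and 5 autosomes were lower. With peaks merged up to 1 kb it was 1.33 and 18 were lower. With lists as deposited it was 0.853, below all 21 other autosomes, of which 18 were under control too. In domains under 2 kb the 1 h ratio was 1.33 on the segment and 1.24 on the other autosomes. In those of 2 to 10 kb it was 1.48, against 1.47, and in those of 10 to 50 kb 1.56, against 1.48. In those of 50 kb or more it was 1.32, against 1.47. On the segment these were 8 domains with 430.81 kb of control cover. Of this, 205917 bp lay in the domain from 80826010 to 81080720, which was covered over 80.8% in control. The part of this domain in the ratio was not tested.

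**Figure D4:**
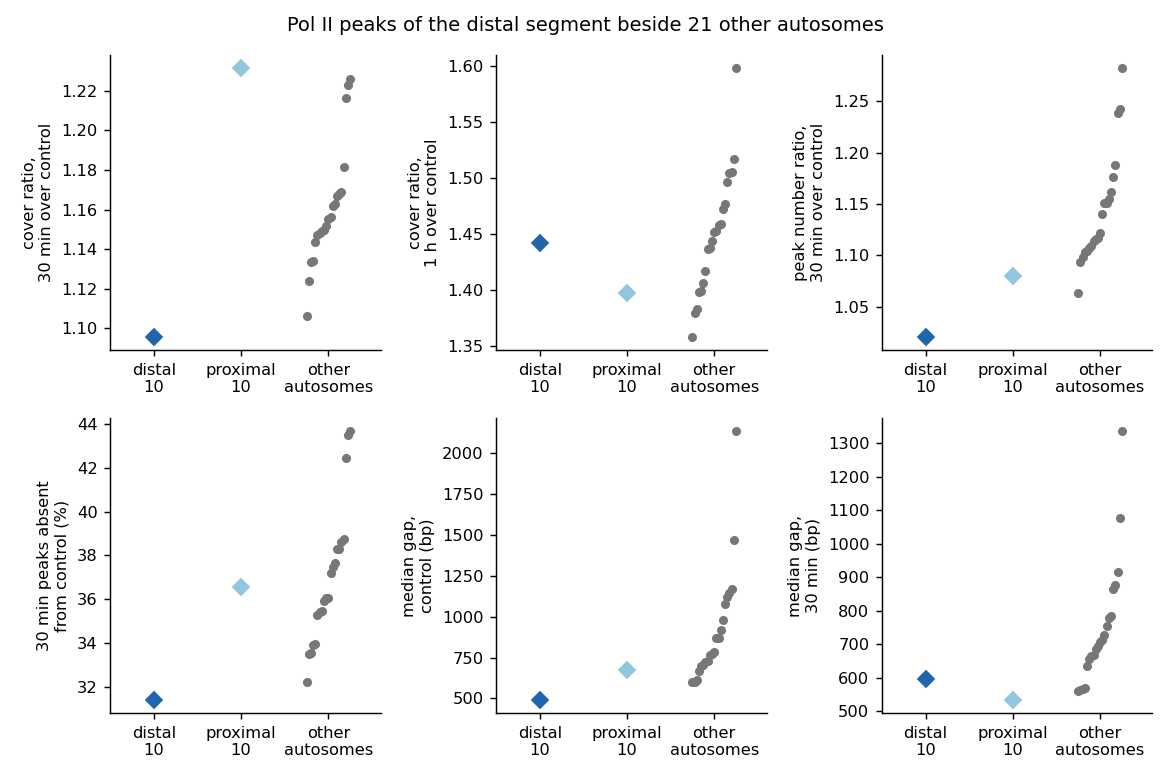
Cover ratios, peak number ratio, share of 30 min peaks absent from control (%) and median gaps (bp) on distal chromosome 10, proximal chromosome 10 and each of the other 21 autosomes (grey points, sorted by value), 1 value per list with no error; axes do not start at 0. The distal segment is lowest at 30 min for the cover ratio (1.10), the peak number ratio (1.02) and the share of peaks absent from control (31.4%), and inside the autosomal range at 1 h for the cover ratio (1.44).

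The change varied along the segment. Among the 8 bins of 5 Mb with at least 50 kb of control cover, the 30 min ratio ran from 0.974 to 1.19 with a median of 1.08, and the 1 h ratio from 1.16 to 1.79. Both were lowest in the bin from 89000000 to 93999999, where cover was 62.3 kb at 30 min against 63.9 kb in control. Both were highest from 119000000 to 123999999. The 4 proximal bins of like cover ran from 1.16 to 1.46 at 30 min.

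The share of 30 min peaks that met no control peak was lower on the segment than on each of the other autosomes. Such peaks numbered 655 of 2086 on the segment (31.4%, 29.4 to 33.4), beside 36.3% in the whole series. The share was 36.6% (34.1 to 39.1) on the proximal side and 32.2% to 43.7% on the other autosomes. The interval of the segment includes the lowest of these, on chromosome 6. Without the densest 5 Mb bin the share was 33.2% with 1 autosome lower, and with peaks merged up to 1 kb it was 23.9% with 7 lower. Their median width was 218 bp, where those with a partner had 562 bp, and 79.5% lay within 5 kb of a control peak. The share was below that of the other autosomes in each width class under 1200 bp. Under 200 bp, 63.4% (58.6 to 68) had no partner, against 70.5% (69.7 to 71.2) on the other autosomes. The proximal side was like the segment there, at 63.1% (57.3 to 68.5). From 200 to under 300 bp the segment, the other autosomes and the proximal side had 51.8%, 56.9% and 55.8%. The shares were 27.5%, 31.3% and 31.9% from 300 to under 600 bp, and 5.29%, 6.4% and 4.96% from 600 to under 1200 bp. In these wider classes the intervals of the segment and the other autosomes overlapped. Conversely, 405 of 2044 control peaks (19.8%, 18.1 to 21.6) had no partner at 30 min, beside 21.4% in the whole series.

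At 1 h 1227 of 2513 peaks (48.8%, 46.9 to 50.8) met no control peak, beside 49.7% in the whole series. Of these 246 lay over 10 kb from any control peak, which is 20%, against 16.7% on the other autosomes and 10.9% on the proximal side. Control peaks with no partner at 1 h numbered 299 (14.6%, 13.2 to 16.2), beside 16.8% in the whole series and 23.7% (21.4 to 26.1) on the proximal side. Of 322 control peaks of 1200 bp or more on the segment none lacked a partner at either time, and unmatched peaks of that width were few on the other autosomes too, at 3 of 8020 for 30 min and 1 of 8020 for 1 h.

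The widest 30 min peak absent from control spanned 921 bp from 112253381 to 112254301 and stood 63 bp from a control peak. Another, 761 bp from 129867564 to 129868324, stood 16053 bp away and was wholly covered at 1 h as well. At 1 h the widest absent from control spanned 4495 bp from 106072296 to 106076790, where peaks at 30 min covered 8.45%. The next was 3136 bp from 102031602 to 102034737, with 14% covered at 30 min. Another, 1924 bp from 104541665 to 104543588, had no cover at 30 min. Among control peaks unmatched at 30 min the widest, 890 bp from 73581462 to 73582351, was 97.4% covered again at 1 h, and 3 of the next 4 wholly so. The widest control peak with none at 1 h, 646 bp from 105204272 to 105204917, had none at 30 min either, and the nearest 1 h peak lay 125 bp away.

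Joined over the 3 lists, 34.3% of the segment's regions held Pol II in all 3, 32.9% at 1 h alone, 9.49% at 30 min alone and 7.09% in control alone. On the other autosomes pooled these shares were 32.8%, 31.2%, 11.3% and 6.99%, so most were near those of the segment. The share at 30 min alone was lower on only 1 of the other autosomes, and the share at 1 h alone was 19.9% on the proximal side, below the 27.7% to 36.2% of the other autosomes. Regions at both merbarone times but not in control made up 9.63% on the segment, 12.9% on the proximal side and 10.6% on the other autosomes.

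Domain by domain, rises were more frequent at 1 h than at 30 min, on the segment as in the whole series. There were 153 domains 5 kb or wider that held peaks of both lists. Of these, 30 were covered more at 30 min by at least 10 points of their length (19.6%, 14.1 to 26.6), beside 25.7% in the whole series, and 7 less (4.58%, 2.23 to 9.14), beside 2.81%. Among the other autosomes the share covered more ran from 20.7% to 39.7%, and the interval of the segment includes both the lowest of these and the share in the whole series. At 1 h 86 of 151 were covered more (57%, 49 to 64.6), beside 57.2% in the whole series, and 5 less (3.31%, 1.42 to 7.52), beside 1.78%. Domains built from the control list alone numbered 95. Of these, 12 were covered more and 12 less at 30 min, beside 21.9% and 7.24% in the whole series, and 40 more and 7 less at 1 h, beside 44.8% and 4.96%. With these domains the segment had no more rises than falls at 30 min, while rises outnumbered falls in the whole series. Of 150 domains scored at both times 24 were covered more at both, 61 at 1 h only and 5 at 30 min only. The median change was 3.01 points at 30 min and 12.1 points at 1 h, against 4.79 and 12.1 on the other autosomes.

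The largest gain at 1 h lay from 106059556 to 106098670, a domain of 39.1 kb with 18.8% of its length under Pol II in control, 32.5% at 30 min and 86% after 1 h. The next, from 120056558 to 120064054, had 17.3%, 10.4% and 70.1%. A domain of 12.1 kb from 112660724 to 112672841 had almost no Pol II in control (1.62%) and 3.61% at 30 min, and 45.3% at 1 h. It held 1, 2 and 12 peaks in these lists. The domain from 102026929 to 102047122 showed a like course, at 10.1%, 13.4% and 52.5%, in 2, 5 and 16 peaks. Domain bounds are drawn from all 3 lists. Where most peaks are of 1 h, a low control share thus follows in part from how the domain was built. In these 4 domains the change at 30 min was at most 13.7 points.

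Gains at 30 min were smaller, and some were lower again at 1 h. The largest, from 74740390 to 74747246, had 28.1% in control, 54.7% at 30 min and 41.2% after 1 h. The second, from 112250264 to 112263789, had 20.8%, 45.5% and 51.6%, and also held 4 TOP2A peaks. The domain from 101368131 to 101373365 was among the 10 largest rises at both times, with 32%, 53.9% and 74.7%. Domains from 82275983 to 82286455 and from 81138408 to 81147005 had 38.2% and 37.6% in control, 59.2% and 57.6% at 30 min, and 49.6% and 47.9% at 1 h.

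Of the 7 domains covered less at 30 min by 10 points, 5 were within 10 points of control or above it at 1 h. The largest, from 102736576 to 102747617, had 56.1% in control, 37.8% at 30 min and 55.1% after 1 h. The 49.2 kb domain from 73562342 to 73611523 had 66.6%, 56.1% and 95%, in 46, 38 and 10 peaks, so it was almost unbroken at 1 h. The other two were covered less at 1 h too: that from 93386221 to 93393356 (73%, 57.7% and 59.5%) and that from 99468282 to 99484356 (69.2%, 54.5% and 59.1%). The second of these holds one of the 5 widest TOP2A peaks. At 1 h the domain from 90692221 to 90702437 was lower at both times, at 27.3%, 19.3% and 15.7%.

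The domains with the most Pol II in control differed among themselves at 30 min. The largest, the 254.7 kb domain from 80826010 to 81080720, held 14.9% of the segment's control cover and was covered over 80.8%, 78.9% and 91.6%, in 228, 152 and 105 peaks. The next, 182.6 kb from 95059961 to 95242511, was covered over 56.7%, 66.6% and 77.2%. The third, 132.9 kb from 75757247 to 75890107, was covered over 49.2%, 54.2% and 60.9%. Together these 3 of 658 domains held 27.1% of control cover.

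**Figure D5:**
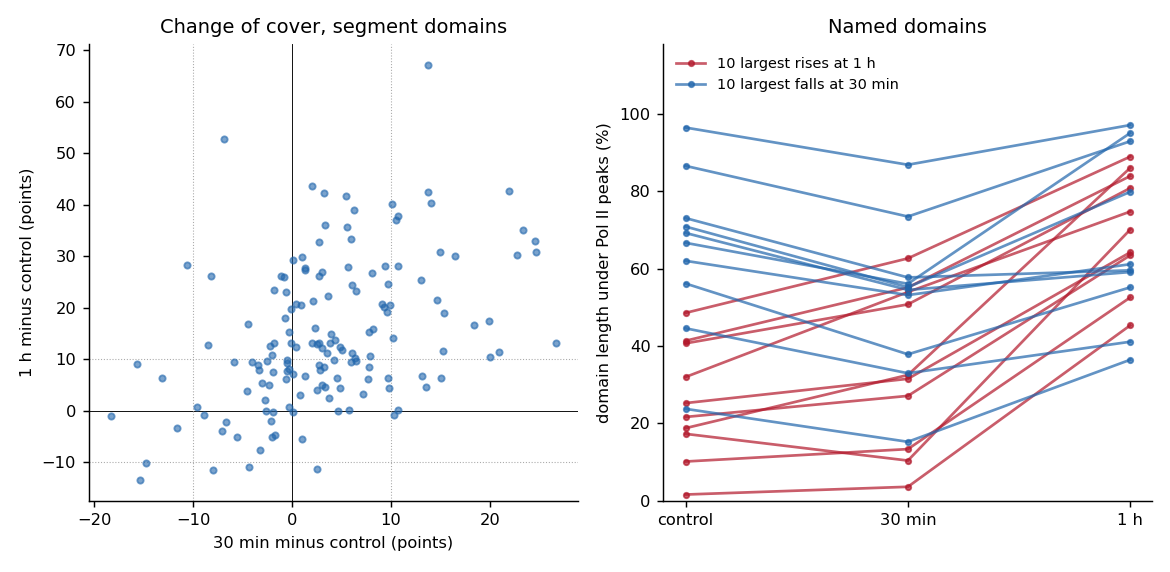
Left, change of cover in percentage points of domain length for 150 domains of the distal segment, 30 min minus control against 1 h minus control, with dotted lines at 10 points. Right, share of length under Pol II peaks in control, at 30 min and at 1 h for the 10 largest rises at 1 h (red) and the 10 largest falls at 30 min (blue); 86% at 1 h is reached by the domain with the largest rise.

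Among segment domains with TOP2A the median change at 30 min was smaller than among those without, as elsewhere, and this was not tested. Of 31 such domains 2 were covered more by at least 10 points (6.45%), against 28 of 122 without TOP2A (23%), and the median changes were 0.123 and 3.24 points. On the other autosomes the shares were 15.7% and 27.1%, and the median changes 2.06 and 5.12 points. The median changes were 3.61 and 6.64 points on the proximal side, where 7 domains held TOP2A. At 1 h on the segment the shares were 48.4% and 59.2%. Control cover on the segment was near alike, at a median of 26.8% with TOP2A and 23.7% without, but domain length was not matched. On the other autosomes it was not alike, at a median of 37.6% with TOP2A and 24.6% without.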

How the data were processed

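Each list holds the start and end positions of peaks in bp, on hg19, as deposited by the authors, 1 list per condition with its libraries pooled. Cells were fixed for 10 min in 1% formaldehyde, per the labels' protocols. Bowtie 1.2.0, MACS2 and deepTools 2.4.1 are named per the submitters' processing notes. For calling thresholds no value was given in the sources used here, and the depth is unknown.

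Peaks up to 37 bp apart were merged and narrow ones removed, to give all 3 Pol II lists the limits of the 1 h list. A partner overlaps by at least 1 bp. Cover is the number of bases under peaks. Domains were scored when at least 5 kb wide, and a change of 10 points of length was counted. Shares carry Wilson intervals, medians order-statistic intervals and TOP2A densities exact Poisson intervals (95%). Neighbouring peaks are not independent, so these are too narrow. Spans run from the first to the last peak, except that the segment's span starts at 64000000 and the proximal one ends at 63999999. Values were computed with numpy 2.4.6 and scipy 1.17.1 under Python 3.11.15, and the interval functions were tested on simulated data against bedtools 2.31.1. Named places were the 10 largest rises and falls of domains, the 5 widest peaks of each kind, the 5 domains of most control cover and the extreme 5 Mb bins; the domains with most TOP2A were added after their values were seen. The members and lists were chosen with earlier results of these data known.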

Additional observations from a re-analysis of the deposited data

How the results depend on the processing

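No paired analysis was possible because the libraries of each condition were pooled into 1 list, and for the same reason no replicate could be left out. Of 124 alternative values, 60 stayed near the value reported and 64 moved. Near means inside its interval for shares and medians, within 1.5 times for counts and densities, and equal after rounding for ratios.
In each of the following, values are in the order control, 30 min and 1 h where 3 are given, and 30 min and 1 h where a pair is given. With lists as deposited, median width was 263.5 bp in control and 294 bp at 30 min, and the median gap 287 and 384 bp. Cover ratios were 1.07 and 1.38, control peaks without partner 23.9% and 18.8%, and 1 h peaks absent from control 43.1%. Regions in control alone made up 12.1%, at 30 min alone 11.3%, at 1 h alone 25.4%, at both merbarone times 8.22%, in control and at 30 min 3.98%, and in control and at 1 h 4.98%. Domains covered less at 1 h numbered 3. With peaks of at least 300 bp, density was 17.4, 17 and 20.8 per Mb, width 680.5, 708.5 and 670.0 bp and the gap 987, 1434 and 955.5 bp. The 1 h cover ratio was 1.47, peaks absent from control 24.3% and 42.3%, and control peaks without partner 15.9% and 9.82%. With peaks merged up to 1 kb, density was 10.5, 11.9 and 13.9 per Mb, width 1122.5, 1079 and 960.5 bp and the gap 17126, 12978 and 9692 bp. Cover ratios were 1.03 and 1.28, peaks absent from control 23.9% and 40.02%, and control peaks without partner at 30 min 15.9%. With the start at 61000000 the 30 min cover ratio was 1.09, and with it at 67000000 the 1 h ratio was 1.43. With an overlap of 50% of the peak, peaks absent from control were 41.1% and 59.6%, and control peaks without partner 28.7% and 20.7%. With any peak within 1 kb as a partner these were 13.5% and 28.4%, and 6.6% and 5.23%. Without the 5 Mb bin of most control cover the cover ratios were 1.11 and 1.49. Per Mb of 100 kb bins that hold a peak, density was 65.1, 66.4 and 80.03. With domains from the control list alone, 12 of 95 were covered more and 12 less at 30 min, beside 21.9% and 7.24% in the whole series, and 40 more at 1 h, beside 44.8%. With TOP2A peaks of at least 100 bp there were 0.897 per Mb and 46.4 per Mb of control cover.

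The 5 alternatives for TOP2A density were chosen after seeing the data. Under these and with lists as deposited the segment was above all 21 other autosomes, by 1.99 to 2.42 times the highest per Mb and by 1.27 to 1.66 times per Mb of Pol II cover. The cause of the shifts was not tested. Lists of positions give neither depth nor copy number, and the IgG libraries were not used.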
